A study of Mus musculus with 13 samples.

Results

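The 35 genes described here encode the core machinery that copies DNA in S phase, from the loading of the helicase at origins to the joining of Okazaki fragments and the supply of deoxynucleotides. They were chosen with earlier results of these data known, so counts over the list are descriptions. They were read by gene symbol from the deposited table of 18748 mouse genes. All 35 matched and passed the filter on low counts, as did 14067 genes in all. The members were read in bulk RNA-seq of mandibular condylar cartilage, the cartilage that caps the jaw bone in the temporomandibular joint. The groups were 6 libraries from aged mice of 18 months and 7 libraries from young mice of 2 months. The labels give no strain, sex, genotype or treatment for either group, and they do not say whether each library came from a separate mouse, so p-values here measure the spread between these libraries.

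A cell licenses its replication origins in G1, when the origin recognition complex, Cdc6 and Cdt1 load the MCM helicase as an inactive ring. In S phase the ring is joined by Cdc45 and the GINS complex, DNA unwinds, and polymerases held by the sliding clamp PCNA copy both strands. Many of these genes are transcribed together late in G1 under E2F transcription factors, and cells that have left the cell cycle hold little of their mRNA. Most chondrocytes of adult cartilage divide rarely, and the condylar cartilage keeps a layer of dividing progenitors and lies against bone and its marrow.

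Promoters of 7 members are shown because E2F factors are the best known shared regulators of these genes, and the set holds 6 members that rose and 1 that was not called. The sequences are RefSeq's for build GRCm38.p6, 5′ to 3′ on the gene's strand. Cdc6 and Mcm5 are shown over the 250 bases before the gene start (chr11:98907901-98908150 and chr8:75109259-75109508, both plus strand). The others are windows of 31 bases around the first matching word: Mcm6 (chr1:128359796-128359826, minus strand), Pola1 (chrX:93632306-93632336, minus strand), Rrm1 (chr7:102441616-102441646, plus strand), Uhrf1 (chr17:56303277-56303307, plus strand) and Gins3 (chr8:95633506-95633536, plus strand), whose mRNA was not called. Capitals mark the E2F word, which is TTCCCGC or TTGGCGC or the reverse complement of either. All 7 sequences shown hold this word, and members whose promoters lack it are not shown. Uhrf1 has a second promoter entry (chr17:56304063-56304362) without the word.
Cdc6: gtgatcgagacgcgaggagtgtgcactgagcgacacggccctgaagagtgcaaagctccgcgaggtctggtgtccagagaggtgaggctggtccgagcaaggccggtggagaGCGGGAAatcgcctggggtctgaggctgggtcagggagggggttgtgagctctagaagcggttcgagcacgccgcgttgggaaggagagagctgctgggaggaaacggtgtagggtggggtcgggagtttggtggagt
Mcm5: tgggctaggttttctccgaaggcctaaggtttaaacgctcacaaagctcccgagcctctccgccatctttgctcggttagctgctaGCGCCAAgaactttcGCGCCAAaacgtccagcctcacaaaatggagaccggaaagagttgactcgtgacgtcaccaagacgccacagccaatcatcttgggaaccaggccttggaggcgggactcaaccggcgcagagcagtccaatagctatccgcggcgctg
Mcm6: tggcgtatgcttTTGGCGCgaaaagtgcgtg
Pola1: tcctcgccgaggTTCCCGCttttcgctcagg
Rrm1: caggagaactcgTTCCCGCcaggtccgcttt
Uhrf1: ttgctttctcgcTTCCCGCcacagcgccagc
Gins3: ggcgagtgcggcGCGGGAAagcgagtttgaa

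RefSeq promoters (250 bases before to 50 bases after the gene start) were at hand for 28 of the 35 members, as 33 sequences. An E2F word on either strand stood in 17 of these 33 (51.5%), which belonged to 16 genes, against 11.3% of the 14285 promoters of all tested genes and 6.81% of the 32851 promoters in the table. Several short lists of related genes also held the word often. It stood in 11 of 23 promoters of other fork subunits (47.8%) and 7 of 15 of other origin factors (46.7%). The counts were 5 of 12 for chromatin assembly genes (41.7%) and 4 of 10 for checkpoint genes (40.0%). The word was less frequent in promoters of E2F, RB and G1/S genes (6 of 21, 28.6%) and of other nucleotide enzymes (1 of 9, 11.1%). The word stood in 15 of the 29 promoters of members called higher in aged libraries (51.7%) and in 2 of the 4 promoters of members not called, those of Gins3 and Rfc3. With 4 promoters of members not called, whether the word sorts the members by their response to age cannot be told. Orc1, Mcm2 and Rrm2, among the members with the largest increases, held no such word in these windows, and neither did Pcna. CCAAT (either strand) stood in 60.6% of the members' promoters, against 37.4% for tested genes and 40.7% for other replication genes. In a list of 25 mitotic genes it was more frequent, at 81.8% of promoters. TTTGAA (either strand) is the core of the element through which mitotic genes are timed to G2. It stood in 12.1% of the members' promoters and 12.3% of those of tested genes, against 72.7% of the mitotic genes' promoters. These words can share letters, as an E2F word does with CCAAT in the Prim1 promoter and the E2F words do with each other in that of Rfc1. GC content was 58.6% in members' promoters and 60.2% in those of tested genes. These matches are descriptions of letters in a window, not of bound sites.

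**Figure D1:**
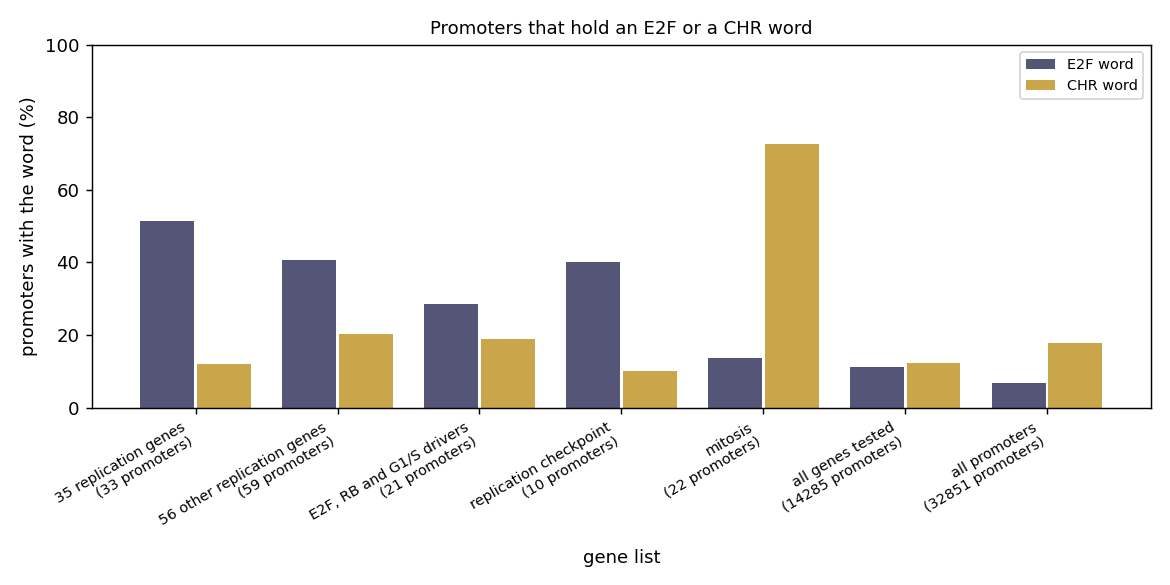
Share of promoters (percent, 250 bases before to 50 after the gene start) that hold an E2F word or TTTGAA (CHR word) on either strand, as a pair of bars for the 35 members, 4 other lists, all tested genes and all promoters of the table. E2F words stood in 51.5% of members' promoters, 40.7% of those of other replication genes and 13.6% of mitotic genes' promoters, and TTTGAA in 12.1% of members' promoters and 72.7% of mitotic genes' promoters.

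The replication genes were higher in aged than in young cartilage. By edgeR's quasi-likelihood test at a Benjamini-Hochberg adjusted p under 0.05, 29 of the 35 members rose, none fell, and 6 were not called. Across all tested genes 24.7% were called higher, 21.6% lower and 46.2% in either direction. The median log2 fold change of the members was 0.73, with a range of 0.12 to 2.06 and all 35 values above 0, whereas the median of all tested genes was 0.014, with 51.7% above 0. At least 2-fold increases were seen for 5 members (Orc1, Cdc6, Mcm2, Rrm2 and Mcm5), where 8.67% of all tested genes were called and at least 2-fold higher. With library sizes alone in place of TMM factors, all 35 members were called. Of all tested genes 7034 were then called higher and 1253 lower, against 3471 and 3033 with TMM. The median of the members stood 0.71 above that of all tested genes under either scaling. Scaling factors shift all genes by nearly the same amount, so this difference cannot test the choice of scaling. In bulk tissue, more cells of a type and more RNA per cell cannot be told apart.

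**Figure D2:**
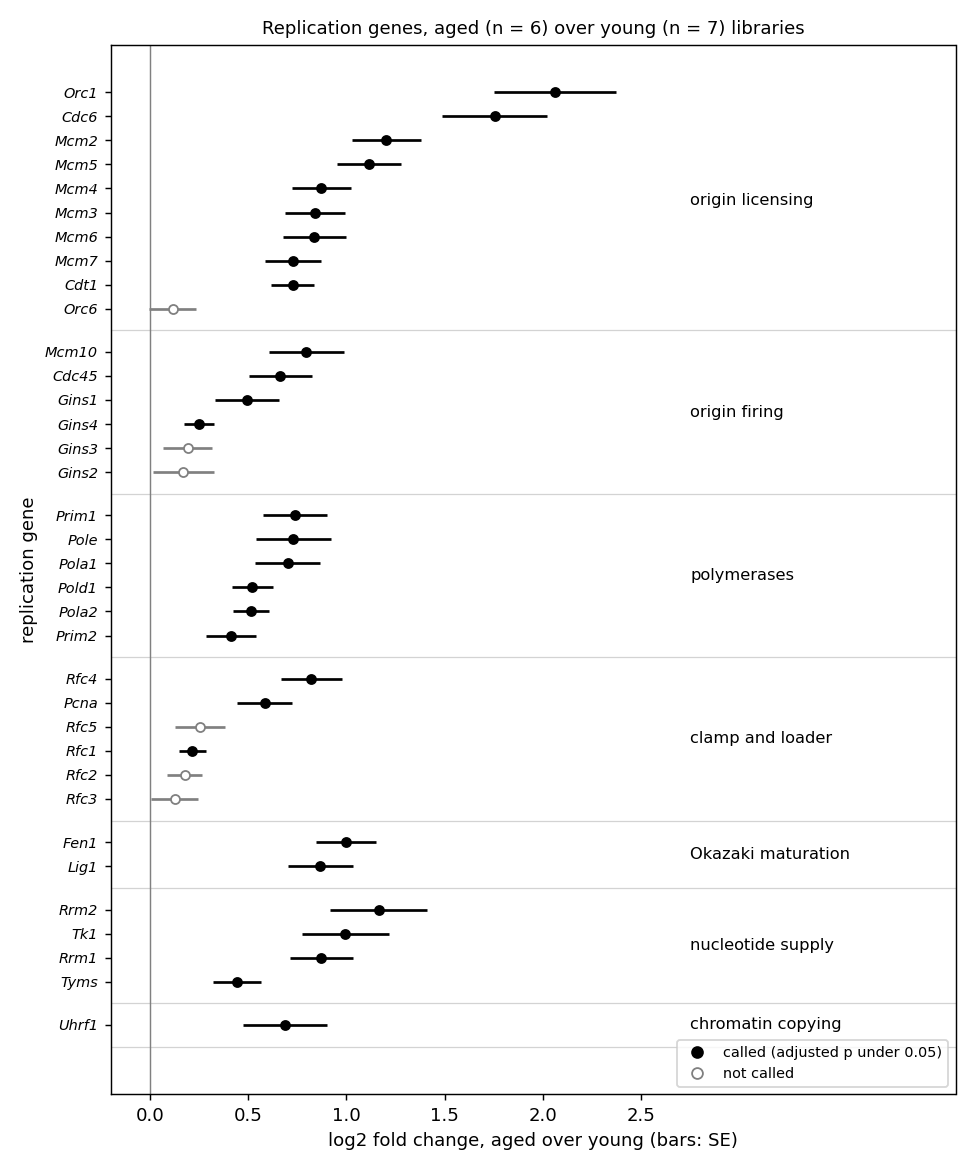
Log2 fold change of aged over young (x axis) with its standard error for each of the 35 members, arranged by role, with filled points for adjusted p under 0.05. All 35 points lie above 0, from 0.12 for Orc6 to 2.06 for Orc1, and 29 were called.

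Depth was similar in the groups, with 16356839 to 17876681 counts in aged and 17531694 to 18203443 in young libraries. Chondrocyte markers were present in every library, with a summed level of 11839 to 25737 TMM-normalised CPM, counts scaled to a common library size in aged and 26526 to 41714 CPM in young libraries, and in aged libraries 7 of 10 were called lower, Col2a1 among them, and 1 higher, Comp. Markers of other tissues differed with age. All 14 erythroid markers were called higher, with a summed level of 643 to 2108 CPM in aged and 46.4 to 281 CPM in young libraries, as were 12 of 13 neutrophil markers (1278 to 6003 CPM in aged, 607 to 1948 CPM in young). Of 7 blood progenitor markers 5 rose (151 to 255 CPM in aged, 139 to 186 CPM in young), of 16 skeletal muscle markers 14 rose (4737 to 18030 CPM in aged, 656 to 5717 CPM in young), and of 11 B-cell precursor markers none rose and 2 fell. Across all tested genes 24.7% were called higher and 21.6% lower, and the 2 falls among the 11 B-cell precursor markers are near the latter share. None of the listed markers was at 0 in every library. Precursors of red cells and granulocytes are dividing cells in marrow, and the part of these cells in the members' increase was tested only through the scores given below.

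Origin licensing held the 3 members with the largest log2 fold changes (Orc1, Cdc6 and Mcm2). Of its 10 members 9 were called higher, with a median log2 fold change of 0.86. Orc1, the largest subunit of the origin recognition complex, had 2.51, 7.58 and 9.01 CPM (lowest, median and highest) in aged libraries, against 1.01, 1.46 and 2.32 CPM in young libraries. Every aged library lay above every young one, and the lowest aged library stood close to the highest young one. The log2 fold change was 2.06 ± 0.31 (SE; edgeR adjusted p = 0.000123). Orc6, another subunit of the same complex, had 9.05, 12.1 and 13.5 CPM in aged libraries, against 8.98, 10.3 and 13.4 CPM in young libraries. These ranges nearly coincided, and the log2 fold change of 0.12 ± 0.12 was not called (edgeR adjusted p = 0.449).

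Cdc6, the ATPase that joins the origin recognition complex to load the helicase, had 10.2, 31.9 and 36.2 CPM in aged libraries, against 5.79, 7.52 and 12.5 CPM in young libraries. Its groups met at their edges, where the lowest aged library lay under the highest young one, and the increase was 1.75 ± 0.27 on the log2 scale (edgeR adjusted p = 0.000158). Cdt1, its partner in loading, rose less, by 0.73 ± 0.11 on the log2 scale (edgeR adjusted p = 0.000139).

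All 6 genes of the helicase ring rose, by 0.73 (Mcm7) to 1.20 (Mcm2) on the log2 scale. Mcm2 had 39.1, 80.3 and 93.2 CPM in aged libraries, against 28.1, 29.7 and 43.5 CPM in young libraries, an increase of 1.20 ± 0.17 on the log2 scale (edgeR adjusted p = 9.83e-05). Mcm5 had 43.5, 66.9 and 84.5 CPM in aged libraries, against 22.7, 29.6 and 41.6 CPM in young libraries, with a log2 fold change of 1.12 ± 0.16 (edgeR adjusted p = 0.000101). Mcm5 was the ring subunit whose groups did not overlap, whereas the Mcm2 groups met at the lowest aged and the highest young library. Mcm3, Mcm4 and Mcm6 rose by 0.84 to 0.87 on the log2 scale (edgeR adjusted p from 0.000381 to 0.000815).

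The factors that turn the loaded helicase on rose less, with 4 of 6 members called and a median log2 fold change of 0.37. Mcm10, which acts as the helicase is activated, had 9.90, 13.6 and 20.8 CPM in aged libraries, against 6.05, 7.77 and 11.2 CPM in young libraries (log2 fold change 0.80 ± 0.19, edgeR adjusted p = 0.00391). Cdc45, the helicase cofactor, rose by 0.66 ± 0.16 (edgeR adjusted p = 0.00384). The GINS complex has 4 subunits, and they stood between no call and small increases: Gins4 rose by 0.25 ± 0.08 and Gins1 by 0.49 ± 0.16 on the log2 scale (edgeR adjusted p = 0.0175 for Gins4 and 0.0225 for Gins1). The Gins1 call was lost when aged 1 or aged 6 was left out. Gins2 had 4.58, 5.73 and 7.15 CPM in aged libraries, against 4.15, 4.84 and 7.48 CPM in young libraries, and its log2 fold change of 0.17 ± 0.16 was not called (edgeR adjusted p = 0.394). Gins3 had 5.18, 7.06 and 9.06 CPM in aged libraries, against 5.51, 6.01 and 7.54 CPM in young libraries, and was not called either (log2 fold change 0.19 ± 0.13, edgeR adjusted p = 0.226). The aged range lay inside the young range for Gins2, and the young range inside the aged range for Gins3.

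All 6 polymerase genes rose, with a median log2 fold change of 0.61 and a narrow range of 0.41 to 0.74. Prim1, the catalytic primase subunit, had 7.92, 12.9 and 15.3 CPM in aged libraries, against 5.75, 6.98 and 9.39 CPM in young libraries (log2 fold change 0.74 ± 0.16, edgeR adjusted p = 0.00198). Prim2, the other primase subunit, had 9.86, 13.9 and 16.8 CPM in aged libraries, against 8.83, 10.2 and 12.5 CPM in young libraries (log2 fold change 0.41 ± 0.13, edgeR adjusted p = 0.0157). The primase groups overlapped, as the lowest aged libraries lay among the young ones. Pola2, the B subunit of polymerase alpha, had 18.8, 19.8 and 25.9 CPM in aged libraries, against 13.1, 13.9 and 17.9 CPM in young libraries, and Pold1, the catalytic subunit of polymerase delta, had 33.2, 35.7 and 48.5 CPM in aged libraries, against 21.5, 25.2 and 31.8 CPM in young libraries. With Orc1 and Mcm5, these were the 4 members with no overlap between the ages, where 8.28% of all tested genes lay wholly higher in aged libraries. Their log2 fold changes were moderate, 0.51 ± 0.09 for Pola2 and 0.52 ± 0.11 for Pold1 (edgeR adjusted p = 0.00045 and 0.00116). Pola1 and Pole, the catalytic subunits of polymerases alpha and epsilon, rose by 0.70 ± 0.17 and 0.73 ± 0.19.

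The sliding clamp and its loader split, with 3 of 6 members called and a median log2 fold change of 0.24. Pcna, the clamp, had 61.2, 98.3 and 110.1 CPM in aged libraries, against 51.5, 56.9 and 73.2 CPM in young libraries (log2 fold change 0.58 ± 0.14, edgeR adjusted p = 0.00404). Rfc4, a small subunit of the loader RFC, had 5.49, 9.90 and 11.1 CPM in aged libraries, against 4.09, 5.14 and 6.61 CPM in young libraries, and showed the largest change of the group (log2 fold change 0.82 ± 0.16, edgeR adjusted p = 0.000793). For both genes the lowest aged libraries reached into the young range. Rfc1, the large subunit, rose by 0.22 ± 0.07 (edgeR adjusted p = 0.0169).

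The other 3 small RFC subunits were not called, and their aged and young ranges overlapped widely. Rfc2 had 27.7, 34.5 and 39.2 CPM in aged libraries, against 26.4, 29.2 and 35.8 CPM in young libraries (log2 fold change 0.18 ± 0.09, edgeR adjusted p = 0.115). Rfc3 had 5.83, 7.76 and 9.75 CPM in aged libraries, against 6.32, 7.08 and 8.36 CPM in young libraries (0.13 ± 0.12, edgeR adjusted p = 0.409). Rfc5 had 11.7, 17.4 and 21.3 CPM in aged libraries, against 12.9, 13.02 and 15.8 CPM in young libraries (0.25 ± 0.13, edgeR adjusted p = 0.119). Rfc3 and Rfc5 each had their lowest value in an aged library, and Rfc2 and Rfc5 were called when aged 3 was left out, Rfc5 also without aged 2.

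Both genes of Okazaki fragment maturation rose. Fen1, the flap nuclease, had 24.1, 37.5 and 48.3 CPM in aged libraries, against 15.4, 17.2 and 24.8 CPM in young libraries (log2 fold change 1.00 ± 0.15, edgeR adjusted p = 0.000152). Lig1, the ligase that seals the nicks, had 31.5, 55.2 and 66.3 CPM in aged libraries, against 23.2, 26.4 and 39.1 CPM in young libraries (0.87 ± 0.17, edgeR adjusted p = 0.000845). In both cases the highest young library lay above the lowest aged one.

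All 4 genes of nucleotide supply rose, with a median log2 fold change of 0.93. Rrm2, the S-phase subunit of ribonucleotide reductase, had 35.6, 86.6 and 99.0 CPM in aged libraries, against 27.3, 30.4 and 46.9 CPM in young libraries (log2 fold change 1.16 ± 0.25, edgeR adjusted p = 0.00175). Tyms, thymidylate synthase, had 9.96, 14.8 and 16.3 CPM in aged libraries, against 8.71, 10.1 and 11.7 CPM in young libraries (0.44 ± 0.12, edgeR adjusted p = 0.00903). Overlap came from the lowest aged libraries in both. Rrm1, the large reductase subunit, and Tk1, thymidine kinase, rose by 0.87 ± 0.16 and 0.99 ± 0.22 (edgeR adjusted p = 0.000595 and 0.00236). Pcna and Tyms have pseudogene copies in the mouse annotation, and reads shared with these could be split in the counting, so their levels are less certain.

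Uhrf1, which brings the maintenance DNA methyltransferase to newly copied DNA, had 36.5, 62.5 and 94.7 CPM in aged libraries, against 30.9, 35.2 and 61.9 CPM in young libraries. The increase of 0.69 ± 0.21 on the log2 scale was called (edgeR adjusted p = 0.0176), although the highest young library stood close to the aged median.

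The increase was uneven between libraries and largely shared by the members within each library. Averaged over the 35 members, the log2 level relative to the young mean was 1.05, 0.20, 0.30, 0.82, 0.78 and 0.88 in aged libraries 1 to 6, and 0.38, -0.07, -0.15, -0.01, -0.03, 0.02 and -0.14 in young libraries 1 to 7. Aged 2 and aged 3 thus stood below young 1, and the other 4 aged libraries stood well above all young ones. Aged 1 was the highest aged library for 27 of 35 members, aged 2 was the lowest for 21 and aged 3 for the other 14, and young 1 was the highest young library for 31. Counted by library, 34 members in aged 1, 31 in aged 4, 30 in aged 5 and 31 in aged 6 lay above the highest young value, but 7 in aged 2 and 13 in aged 3 did. Without young 1, a library picked after the data were seen, 16 members had no overlap in place of 4, where 9.13% of all tested genes lay wholly higher in aged libraries. Leaving out any library can raise this count and cannot lower it, and young 1 is the highest young library for most members. The share of all tested genes is not a matched baseline, since young 1 was not picked as their highest young library. The spread between libraries (SD of CPM) was larger in aged than in young libraries for all 35 members, and the coefficient of variation for 34, as they were for 78.1% and 77.9% of all tested genes.

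**Figure D3:**
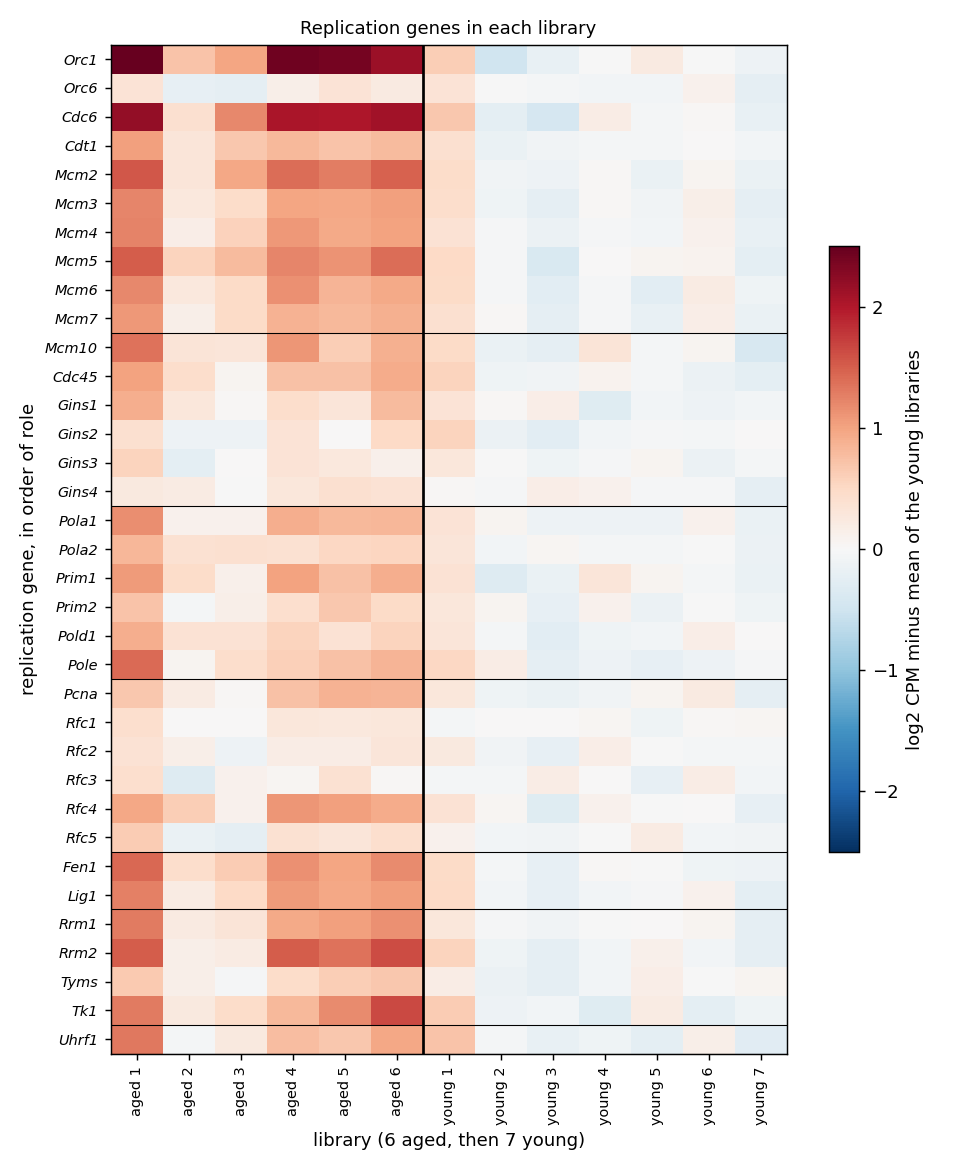
Log2 CPM of each of the 35 members (rows, by role) minus its mean over young libraries, in each library (columns, aged 1 to 6 on the left and young 1 to 7 on the right). Aged 1, 4, 5 and 6 are raised across most members, with library means of 0.78 to 1.05, while aged 2 and aged 3 (0.20 and 0.30) lie near young 1 (0.38).

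The libraries that were low in the members among the aged were also low in erythroid markers. The members summed to 855 to 1600 CPM in aged and 665 to 968 CPM in young libraries, with aged 2 and aged 3 the lowest of the aged. The summed erythroid level was 757 CPM in aged 2 and 643 CPM in aged 3, the lowest of the aged libraries, and 185 CPM in young 1 and 281 CPM in young 5, the highest of the young. Young 5 did not follow this pattern, since its members stood at -0.03 relative to the young mean and summed to 715.6 CPM, near the young median of 716.7 CPM. Muscle markers were highest in aged 2, aged 3 and aged 5. With the erythroid score as a term in the fit, 0 of the 35 members were called and their median log2 fold change was -0.14. Calls also fell among all tested genes, to 349 higher and 292 lower, against 3471 and 3033 without the score. The members' median standard error was 0.31, against 0.16 without the score. With erythroid and neutrophil scores combined in 1 term the members' median log2 fold change was -0.01. In that fit 0 members were called by edgeR at an adjusted p under 0.05, none higher and 2 lower at an unadjusted p under 0.05. Of all tested genes 980 were called higher and 741 lower there. With a muscle score 29 members were called and their median was 1.00, but 2 calls of the main fit were lost and 2 were gained. Of all tested genes 1956 were called higher and 1713 lower in that fit. The summed erythroid levels of aged and young libraries did not overlap, so age and erythroid content cannot be told apart in these fits.

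**Figure D4:**
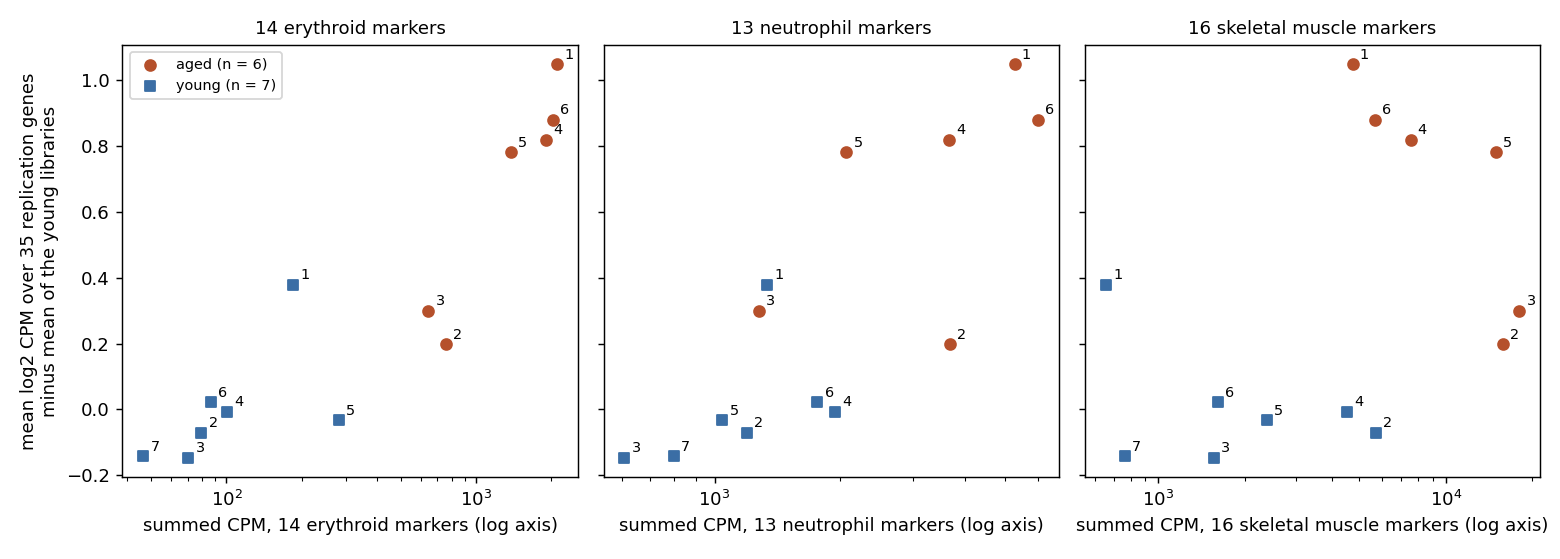
Mean log2 CPM of the 35 members minus the young mean (y axis) against the summed CPM (x axis, log scale) of erythroid, neutrophil and skeletal muscle markers, with 1 numbered point per library (circles aged, squares young). Aged 2 and aged 3 (0.20 and 0.30) lie below the other aged libraries (0.78 to 1.05) and have the lowest erythroid sums of the aged libraries (757 and 643 CPM).

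Levels between genes were compared per length, in TPM, the length-normalised unit of the table. Pcna was the most abundant member at both ages (204.3 ± 44.0 TPM in aged and 133.0 ± 17.4 TPM in young libraries, SD, n = 6 and 7) and Orc1 the least (5.06 ± 2.28 TPM in aged and 1.15 ± 0.307 TPM in young). Mcm2 moved up the order to rank 7 of 35 in aged libraries, against rank 11 in young, and Rrm2 to rank 3 against rank 5. Rfc2 and Gins4 moved down, Rfc2 to rank 5 against rank 2 and Gins4 to rank 14 against rank 6. Neighbouring ranks were not tested against each other.

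Since scaling between libraries cancels in the ratio of genes within a library, log2 count ratios of subunits of the same complex were compared between ages by a two-sided exact permutation test over all 1716 ways to place the age labels, adjusted over 39 pairs (smallest possible p = 0.000583). Of these pairs 16 differed, 10 of 15 within the helicase ring, 4 of 10 within RFC, 1 of 6 within polymerase alpha-primase, 1 of 1 within the origin recognition complex, and none of 6 within GINS. Pairs that share a gene are not independent. Ratios of unrelated genes were not compared, so this count has no baseline, and 46.2% of all tested genes were called in either direction. Orc1 over Orc6 averaged -1.002 ± 0.57 in aged and -2.82 ± 0.29 in young libraries on the log2 scale, a difference of 1.82 (exact permutation test, adjusted p = 0.00455). Mcm2 over Mcm7 averaged -0.26 ± 0.15 in aged and -0.71 ± 0.08 in young libraries, a difference of 0.45 (exact permutation test, adjusted p = 0.00455). Mcm5 over Mcm7 differed by 0.39 (exact permutation test, adjusted p = 0.00649), and Mcm2 over Mcm5 by 0.06, within the spread (exact permutation test, adjusted p = 0.696). Mcm2 and Mcm5 each rose relative to Mcm3, Mcm4, Mcm6 and Mcm7, and each of these pairs was called. Of the ring's summed TPM, Mcm2 made up 15.1% ± 1.23 in aged and 12.3% ± 0.532 in young libraries, Mcm5 13.2% ± 0.676 and 11.3% ± 0.929, and Mcm7 25.9% ± 0.743 and 28.9% ± 0.621. In RFC, all 4 pairs with Rfc4 differed, by 0.57 for Rfc4 over Rfc5 (exact permutation test, adjusted p = 0.00455), and none of the pairs without it did. The reductase ratio Rrm1 over Rrm2 differed by -0.24, which was not called (exact permutation test, adjusted p = 0.147).

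**Figure D5:**
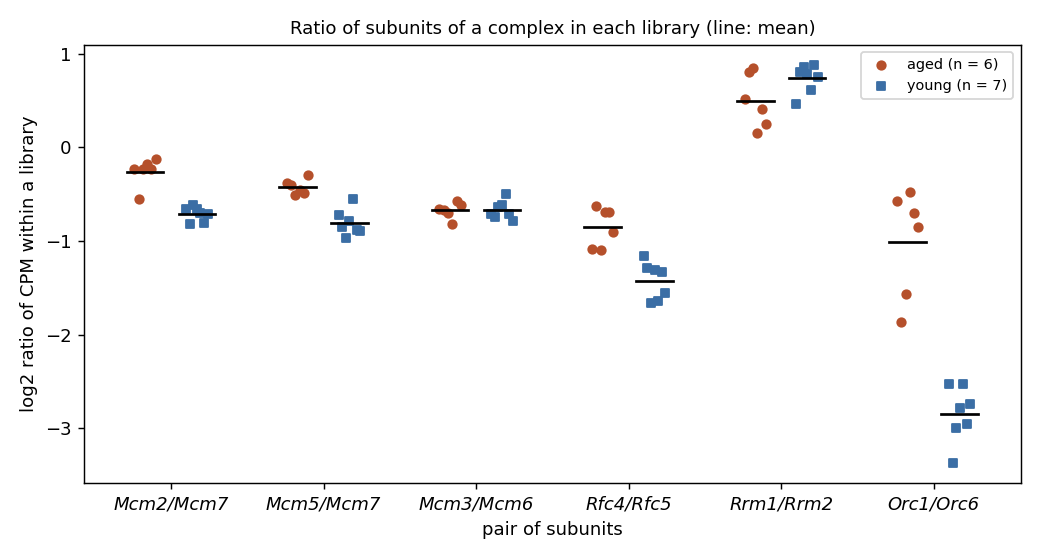
Log2 ratio of CPM within each library for 6 subunit pairs (aged left of young within each pair, 1 point per library, lines for the mean). The aged and young points of Mcm2 over Mcm7 and of Orc1 over Orc6 lie apart, while those of Mcm3 over Mcm6 and of Rrm1 over Rrm2 overlap.

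Other genes of replication had a smaller median change than the members. Of 56 further replication genes 29 rose and 3 fell, with a median log2 fold change of 0.31. Among them 8 of 14 other origin factors rose, with Ticrr, which starts helicase activation, at 1.02 ± 0.19 and Recql4 at 0.84 ± 0.17. Of 24 other fork subunits 15 rose, with Wdhd1, which ties helicase to polymerase alpha, at 1.12 ± 0.19 and the nuclease Dna2 at 1.07 ± 0.14, and 1 fell, Chtf8 (-0.27 ± 0.07). Of 9 other nucleotide enzymes 2 rose (Dut 0.43 and Samhd1 0.37) and 2 fell, with Dctd at -0.45, and both shares (22.2%) are near those of all tested genes (24.7% higher and 21.6% lower). Dut was not called without aged 1, aged 5 or aged 6, nor Samhd1 without aged 1 or aged 6. Of 9 chromatin assembly genes 4 rose, among them Asf1b (0.83) and Dnmt1 (0.59).

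The lists upstream and downstream of S phase differed in their counts. Of 23 E2F, RB and G1/S genes 11 rose and 3 fell, with Ccne1, cyclin E1, at 1.49 ± 0.24, E2f8 at 1.36 ± 0.24 and E2f5 at -0.41 ± 0.08. Of 14 checkpoint genes 8 rose, Fanci (1.01) and Brca1 (0.85) furthest. Of 25 mitotic genes 6 rose, which at 24.0% is near the 24.7% of all tested genes, and none fell, where 21.6% of all tested genes did. Median log2 fold changes were 0.44 for the E2F, RB and G1/S list, 0.38 for the checkpoint list and 0.30 for the mitotic list. The medians of the 56 other replication genes and of all tested genes were 0.31 and 0.014. Mki67, the proliferation marker, rose by 1.05 ± 0.26 on the log2 scale (edgeR adjusted p = 0.00485), and Ube2c by 0.80 ± 0.22. Top2a, the topoisomerase of late S phase and G2, had a log2 fold change of 0.32 ± 0.22 and was not called (edgeR adjusted p = 0.255). Whether the lists differ from the members was not tested.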

How the data were processed

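Expected counts, FPKM and TPM per gene were read from the table the authors deposited. The counts the authors deposited were not all whole (5.3% of values were not) and were treated here like estimated (expected) counts, and the submitters' processing notes list HISAT2 2.1.0, Bowtie2 2.3.4.3, RSEM 1.3.1, DESeq2 1.4.5 and GRCm39 without roles. The FPKM values the authors deposited were used in an alternative, and the TPM values the authors deposited to compare levels between genes. Per the labels, libraries were poly(A)-selected, strand-specific and paired-end. Counts were rounded, filtered with filterByExpr, TMM-scaled and tested with edgeR 4.0.16 (glmQLFit, robust, glmQLFTest) in R 4.3.3, with Benjamini-Hochberg adjustment over all 14067 tested genes. CPM are TMM-normalised. TMM factors were 1.04 to 1.16 in aged and 0.90 to 0.96 in young libraries. Standard errors are the log2 fold change divided by the root of F. Alternatives used DESeq2 1.42.0 and limma 3.58.1. Libraries of the same age all differed by more than counting noise (smallest chi-square per degree of freedom 9.87).

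The members, lists and tests were chosen with earlier results of these data known. All 35 members were named, and Mki67 and Top2a always. From each pathway list the 2 called genes with the largest change in the main direction and the largest called in the other direction were named, and from each marker list the gene with the highest mean CPM. Among these were Col2a1 (chondrocyte), Slc4a1 (erythroid), Ngp (neutrophil), Cd34 (blood progenitor), Cd4 (T cell), Csf1r (macrophage), Acta1 (muscle), Spp1 (osteoblast), Mmp9 (osteoclast), Pecam1 (endothelial) and Mbp (Schwann). Subunit ratios (0.5 added to each count) and the count without young 1 were added after the data were seen. Promoter sequences are from another build than the counts, so no coordinates were joined to the table. Mcm4, Gins1, Gins2, Gins4, Prim2, Pole and Rfc2 have no sequence here. Procedures were tested on simulated data.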

Additional observations from a re-analysis of the deposited data

Results flagged for a closer look

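In 25 of 188 groups of 6 or 7 libraries examined, the highest or lowest library stood apart from the rest by Dixon's criterion, where chance flags about 1 in 20 groups, and 20 of the 25 concerned young 1. The groups share libraries and genes, so these are not independent.

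Young 1 was the highest young library among the members for Cdt1 (22.4 CPM, against 17.1 in the next), Mcm2 (43.5 CPM, next 33.4), Cdc45 (12.4 CPM, next 8.92), Gins2 (7.48 CPM, next 5.07), Pola2 (17.9 CPM, next 14.9), Fen1 (24.8 CPM, next 18.1), Lig1 (39.1 CPM, next 29.6), Rrm2 (46.9 CPM, next 34.97) and Uhrf1 (61.9 CPM, next 41.6). It also stood above the other young libraries for Ticrr (8.76 CPM), Recql4 (5.97 CPM), Asf1b (16.7 CPM), Top2a (157.7 CPM) and Brca1 (13.7 CPM), and for summed CPM of the polymerase genes (103.7), the Okazaki maturation genes (63.8), the nucleotide supply genes (141.3), Uhrf1 as the chromatin gene (61.9), the checkpoint genes (171.1) and all 35 members (968, next 783). Its erythroid sum of 185 CPM was the second highest of the young libraries, and its part in these values was not tested.

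Aged 1 stood above the other aged libraries for Pola2 (25.9 CPM, next 21.0) and Pold1 (48.5 CPM, next 38.1). Aged 4 was highest for the summed chondrocyte markers (25737 CPM, next 15271) and the summed osteoblast markers (14537 CPM, next 9158). Young 5 was lowest for the summed blood progenitor markers (139.4 CPM, next 171.5).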

How the results depend on the processing

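Under RLE and upper-quartile factors, DESeq2, limma-voom, no filter and a stricter filter, 29 members were called higher under each, and under limma on log2(FPKM + 1) and log2(FPKM + 0.1) 32 were. Library sizes alone called all 35, and 7034 genes higher and 1253 lower, with a median of 0.96 where the median of all tested genes was 0.24. That setting called 84 pathway genes higher and 0 lower, against 54 and 6. Limma on FPKM called 6250 genes higher and 1361 lower with 1 added, and 6234 and 1366 with 0.1 added, and 1 pathway gene lower with either. The cause was not tested.

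Leaving out each library in turn gave 28 to 31 members higher, 0 lower, a median of 0.58 to 0.80, 42 to 66 pathway genes higher and 5 to 6 lower, 3149 to 3413 of all genes higher and 2739 to 3100 lower, and 13 to 20 differing subunit pairs. Dut was not called without aged 1, 5 or 6, nor Samhd1 without aged 1 or 6. Library numbers are shared by the ages, but only numbers: correlations of same-numbered deviations were 0.25, 0.16, 0.26, -0.12, 0.11 and 0.17, and 2 of 6 aged libraries correlated best with their own number. With the replicate number as a block, 27 members were called higher, with a median of 0.69, and 3077 of all genes higher and 2712 lower. Gins1, Gins4 and Dctd were then not called (edgeR adjusted p = 0.0526, 0.0913 and 0.078).

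Marker scores as covariates changed the members' calls the most. The erythroid score left 0 members, 1 pathway gene higher and 0 lower, 349 of all genes higher and 292 lower, and a median of -0.14. The erythroid and neutrophil score left 0 members, 3 pathway genes higher and 14 lower, 980 of all genes higher and 741 lower, and a median of -0.007. Both that and the muscle score left 0 members, 0 pathway genes in either direction, 13 of all genes higher and 19 lower, and a median of 0.30. The muscle score alone gave a median of 1.00, 1 pathway gene lower, 1956 of all genes higher and 1713 lower. At an unadjusted p under 0.05 the edgeR fits called 0 members higher and 1 lower with the erythroid score, 0 and 2 with the combined score, and 1 and 0 with both. Such scores follow age, and these values do not separate the effects. With the erythroid score as a covariate, the log2 fold changes turned negative for 25 members and 14 other named genes: Asf1b -0.58, Brca1 -0.45, Ccne1 -0.25, Cdc45 -0.34, Dnmt1 -0.0007, Dut -0.49, E2f8 -0.26, Fanci -0.36, Gins1 -0.13, Gins2 -0.66, Gins3 -0.45, Lig1 -0.22, Mcm10 -0.44, Mcm3 -0.14, Mcm4 -0.024, Mcm5 -0.012, Mcm7 -0.024, Mki67 -0.75, Orc1 -0.10, Orc6 -0.53, Pcna -0.33, Pola1 -0.25, Pole -0.093, Prim1 -0.30, Prim2 -0.16, Recql4 -0.064, Rfc2 -0.27, Rfc4 -0.083, Rfc5 -0.59, Rrm1 -0.16, Rrm2 -0.60, Samhd1 -0.15, Ticrr -0.10, Tk1 -0.38, Top2a -1.02, Tyms -0.29, Ube2c -0.70, Uhrf1 -0.59 and Wdhd1 -0.054. With the erythroid and neutrophil score combined, the log2 fold changes turned negative for 18 members and 9 other named genes: Asf1b -0.62, Brca1 -0.26, Cdc45 -0.26, Dut -0.36, E2f8 -0.10, Fanci -0.14, Gins1 -0.092, Gins2 -0.60, Gins3 -0.27, Lig1 -0.007, Mcm10 -0.38, Mki67 -0.62, Orc6 -0.40, Pcna -0.20, Pola1 -0.13, Prim1 -0.26, Prim2 -0.059, Rfc2 -0.32, Rfc4 -0.062, Rfc5 -0.48, Rrm2 -0.27, Samhd1 -0.32, Tk1 -0.053, Top2a -1.02, Tyms -0.21, Ube2c -0.74 and Uhrf1 -0.40. With that score and the muscle score, the log2 fold changes turned negative for 11 members and 5 other named genes: Asf1b -0.41, Gins2 -0.12, Gins3 -0.030, Gins4 -0.016, Mcm10 -0.21, Mki67 -0.12, Orc6 -0.22, Pcna -0.057, Prim1 -0.11, Prim2 -0.0089, Rfc2 -0.29, Rfc4 -0.17, Rfc5 -0.21, Samhd1 -0.035, Top2a -0.53 and Ube2c -0.22. Orc1, Gins1, Gins2, Gins3, Prim1, Rfc3 and Rfc4 had under 10 CPM in every young library, and counting error weighs more on them than on members with higher counts.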

Other observations

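Some G1/S genes not yet described also differed with age and were picked after their values were seen. E2f2 had 39.5, 95.6 and 152.7 CPM (lowest, median and highest) in aged libraries, against 27.6, 33.0 and 53.4 CPM in young libraries (log2 fold change 1.35 ± 0.28, edgeR adjusted p = 0.0014). Tfdp2, a partner of E2F proteins, rose by 1.04 ± 0.14, and E2f4 by 0.72 ± 0.12. The D-type cyclins Ccnd1, Ccnd2 and Ccnd3 rose by 0.56 to 0.65 on the log2 scale, while their kinase partner Cdk4 fell by 0.34 and E2f3 by 0.32. Cdk1, Foxm1, Cenpf and Prc1, genes of G2 and mitosis, had log2 fold changes of 0.16, -0.14, 0.0044 and -0.22 and were not called (edgeR adjusted p from 0.434 to 0.990). Other genes of the same mitotic list were called higher, among them Birc5 (0.71), Aurka (0.69), Cdca8 (0.63) and Ccnb2 (0.57). The median log2 fold change of that list was 0.30.

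Marker lists not described above had these counts: osteoblast 7 of 8 lower, osteoclast 7 of 8 lower, macrophage 3 higher and 2 lower of 8, endothelial 1 higher and 2 lower of 6, Schwann cell 3 of 5 higher, and T cell 2 higher and 1 lower of 7, of which 4 were tested. Of all tested genes 24.7% were called higher and 21.6% lower. These lists are short, and their counts were not tested against those shares.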
